A study of Komagataella phaffii with 72 samples.

Results

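The genes described here are the 100 that were lowest in the strain GS115 with both recombinant products, of 5120 native genes of the yeast Komagataella phaffii (Pichia pastoris). For each product, the mean of GS115 was subtracted from the lowest of the means of the other 3 strains, on the log2(TPM + 1) scale, where TPM is the transcript level scaled to a common total in each library. The smaller of the 2 gaps was taken as the score of a gene, and the 100 genes with the highest scores were kept. A rank below is the place of a gene in that order. The GS115 values therefore chose the genes and are given as a description, without a test.

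RNA was measured by 3′ digital gene expression, a method that reads the 3′ ends of messenger RNAs, in 72 cultures of 4 strains. Y-11430 is the parent strain, and GS115 is a histidine auxotroph made from it by nitrosoguanidine mutagenesis, with a mutation in HIS4. Y-48124 and X-33 are revertants of GS115 that carry a different substitution at the same position of His4p and share the other mutations of GS115, plus a few of their own. Each strain expressed a human hormone or a human cytokine from the methanol-inducible AOX1 promoter. The hormone was growth hormone (rhGH), and the cytokine was granulocyte colony-stimulating factor (rhG-CSF). Every strain and product had 3 clones, grown as 3 cultures per clone that are lettered from A to C. All cultures were grown for 24 hr with 4% glycerol in complex medium and for 24 hr with 1.5% methanol. A clone is a separate transformant with its own transgene copy number, so clones were taken as the replicates.

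Histidine is made by a dedicated biosynthetic pathway, and the HIS4 product catalyzes several of its steps. Yeasts answer a shortage of an amino acid, and a change of carbon source, by adjusting the transcription of large groups of genes. Methylotrophic yeasts such as K. phaffii oxidize methanol in peroxisomes and devote much of their messenger RNA to that pathway. The deposited tables list genes by GQ67 identifiers, and none of the 100 matched the gene table used here. Only PDR12 could be named, from the study's own list of genes, and the roles of the other 99 are not given here.

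Total counts ranged from 386665 to 33003281 per library. By their medians, the GS115 libraries were deeper than the other groups, at 2682280 (rhGH) and 2824420 (rhG-CSF). The highest total was that of GS115 rhG-CSF 14A. The other cultures of its clone had 5996828 and 4770435, so 14A made up most of the summed counts of that clone. The library labelled X-33 rhGH 12A went against its label. On the 100 genes that best separated Y-48124 (position 0) from Y-11430 (position 1), none of them among the genes described here, it sat at 0.842, whereas the other X-33 rhGH libraries sat between 0.0417 and 0.284. It was left out when the genes were chosen and is left out below except where stated. The Y-11430 rhG-CSF clone 16 also stood apart from its sister clones, and the values without it are given beside the main results that include it.

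Scores ranged from 4.77 at rank 1 to 1.62 at rank 100, with a median of 2.13. On the TPM scale a score of this size is a 27.3-fold, a 3.07-fold, and a 4.36-fold difference, respectively. A score above 2 was found for 59 genes, above 3 for 10, and above 4 for 2. There was no break at the boundary, since the last 3 genes inside had scores of 1.63, 1.62, and 1.62 and the first 3 outside had 1.61, 1.61, and 1.58. Among all 5120 genes, 989 (19.3%) were lowest in GS115 with both products.

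As a group, the 100 genes were abundant outside GS115. A gap can be no wider than the level outside GS115, so the rule itself favors genes that are abundant there. Their median level over the other strains was 9.0 on the log2(TPM + 1) scale, against 4.95 for all genes, and 61 of them lay in the top 10% of genes. In GS115 their median was 6.0, against 5.34 for all genes, and 13 remained in the top 10%. By the rule, the genes were low in GS115 relative to the other strains, but 59 still lay above the median GS115 gene. In a bulk culture, less RNA per cell and a smaller share of cells with the RNA cannot be told apart. The study also reports that GS115 grew poorly when it expressed rhGH or rhG-CSF. Strain and growth therefore cannot be told apart in the gaps.

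The summed TPM of the 100 genes made up 1.66% to 2.49% of a GS115 rhGH library and 1.40% to 2.12% of a GS115 rhG-CSF library. In the other rhGH libraries, the share was 15.1% to 20.5% in Y-11430, 23.1% to 27.3% in Y-48124, and 20.4% to 26.2% in X-33. With rhG-CSF it was 19.9% to 24.3% in Y-48124 and 17.8% to 23.4% in X-33. Y-11430 rhG-CSF was divided, with 3.0% to 3.27% in clone 16 and up to 23.1% in the other clones. No GS115 library reached the share of any other library.

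**Figure D1:**
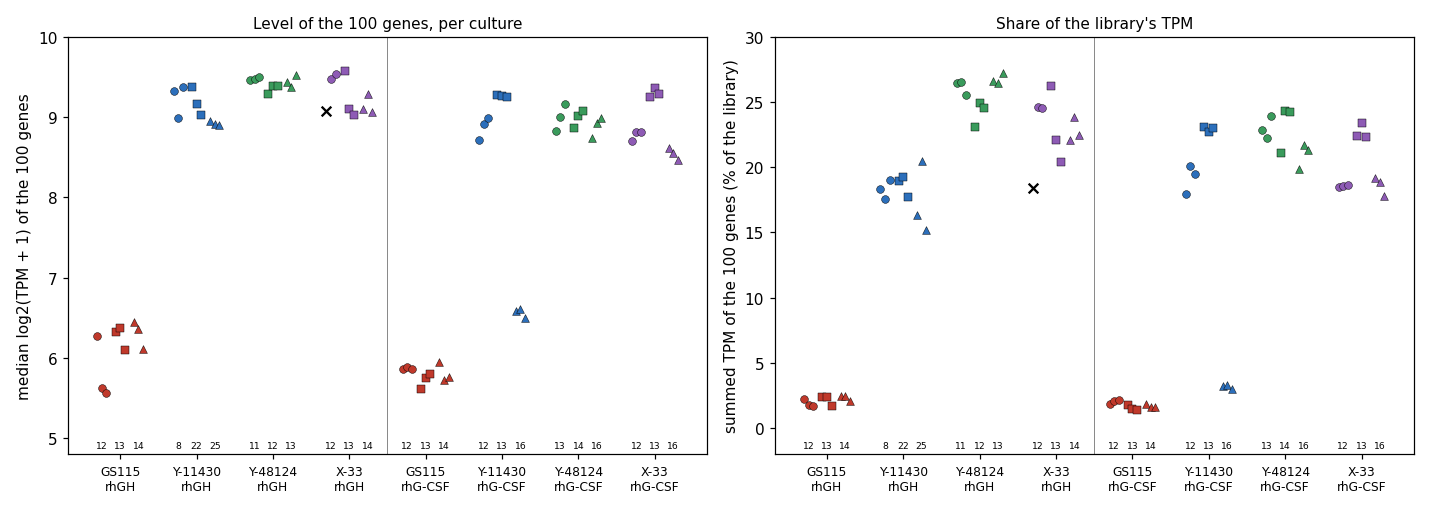
Each point is 1 culture, grouped by strain and product, with the clone number above the axis and the 3 clones of a group drawn as circles, squares, and triangles. The left axis is the median log2(TPM + 1) of the 100 genes and the right axis their summed TPM as a percent of the library. The GS115 cultures lie between 5.57 and 6.45 on the left, Y-11430 rhG-CSF clone 16 between 6.49 and 6.61, and all others above 8.4. The cross is the library labelled X-33 rhGH 12A.

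The median level of the 100 genes per clone was 6.13 ± 0.27 in GS115 rhGH (SD, n = 3 clones) and 5.80 ± 0.08 in GS115 rhG-CSF. With rhGH it was 9.11 ± 0.17 in Y-11430, 9.42 ± 0.06 in Y-48124, and 9.30 ± 0.19 in X-33. With rhG-CSF it was 8.96 ± 0.06 in Y-48124 and 8.87 ± 0.39 in X-33, but 8.23 ± 1.46 in Y-11430. Without clone 16, the Y-11430 value was 9.07 ± 0.27 (n = 2 clones). The median of all genes stayed between 4.76 and 5.53 in every library. TPM has a fixed total per library, so a smaller share of the 100 leaves a larger share to other genes. The median of all genes is therefore not independent of the 100. With rhGH it was higher in GS115, at 5.23 to 5.53 against 4.76 to 5.17 in the other strains. With rhG-CSF the ranges overlapped, at 4.94 to 5.52 in GS115 and 4.89 to 5.21 in the other strains.

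**Figure D2:**
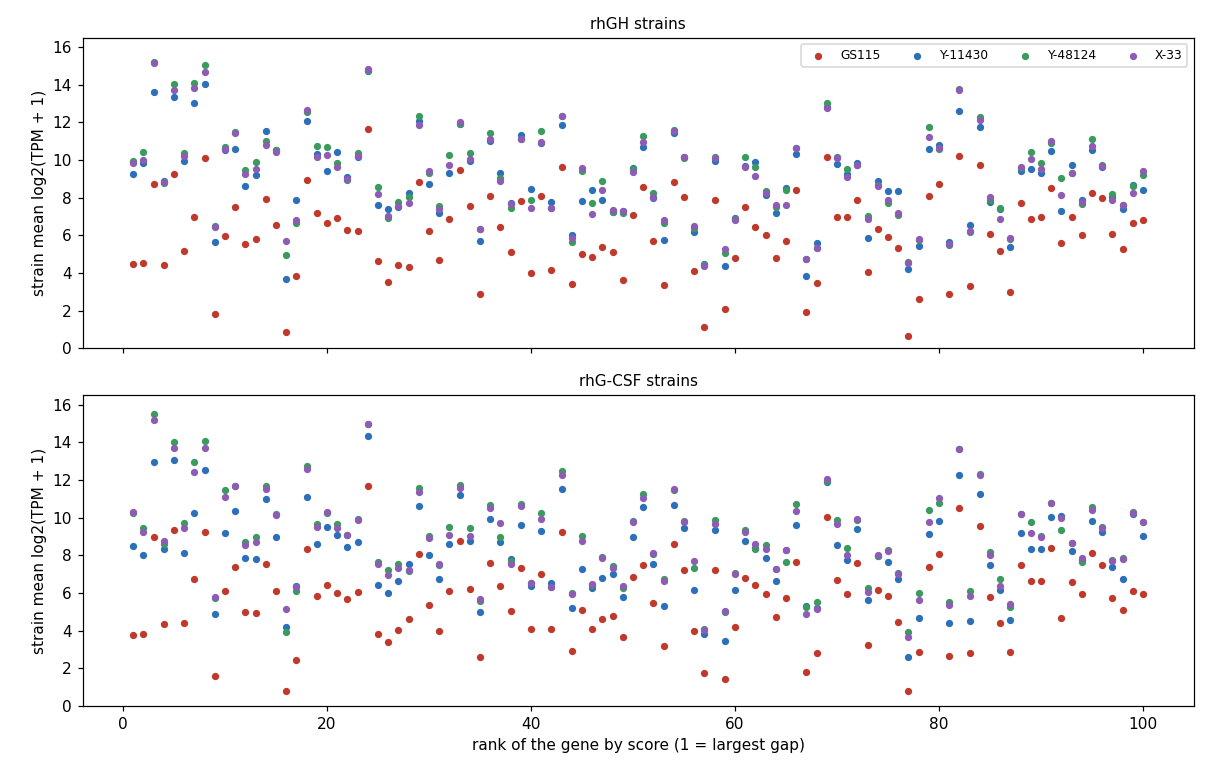
Strain means of log2(TPM + 1), over clones, for each of the 100 genes in order of rank, with rhGH strains above and rhG-CSF strains below. GS115 is the lowest point at every rank because the genes were chosen so. Y-11430 is the lowest of the other strains for 60 genes with rhGH and for 89 with rhG-CSF. The Y-11430 rhG-CSF means include clone 16. Without that clone, the median level of the 100 genes was 9.07 in Y-11430, against 8.96 in Y-48124 and 8.87 in X-33.

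Abundance among the genes was uneven on the TPM scale. TPM divides by transcript length, so the order of genes can differ in counts. In X-33 rhGH, the genes ranked 3 and 5 had means of 15.18 and 13.72 but median counts of 6845 and 17565. The genes ranked 3, 5, 8, 24, and 82 exceeded 12 on the log2(TPM + 1) scale in all 6 group means outside GS115. Together these 5 genes held a median of 53.9% (range 39.3% to 58.8%) of the summed TPM of the 100 in the libraries of the other strains, leaving out Y-11430 rhG-CSF clone 16. In GS115 they held a median of 37.0% (27.9% to 47.6%). At the other end, 9 genes were under 3 in both GS115 means, and 2 of these, ranked 16 and 77, were under 1. The gene ranked 16 had GS115 means of 0.85 (rhGH) and 0.78 (rhG-CSF) and other means between 3.69 and 5.72. No gene was at 0 counts in every GS115 library, 4 were at 0 in at least 1 of the 18, and 93 had at least 3 counts in all 18.

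The highest score belonged to GQ67_03034. Its level in GS115 rhGH libraries ranged from 2.48 to 5.23 with a median of 4.90, and in GS115 rhG-CSF libraries from 2.45 to 4.85 with a median of 3.70. In the other rhGH strains, the lowest library was at 8.20 (Y-11430) and the highest at 10.59 (Y-48124). In Y-48124 and X-33 with rhG-CSF it lay between 9.94 and 10.73. GS115 did not overlap with any of these groups. In Y-11430 rhG-CSF the libraries ran from 3.54 to 10.60, and the low ones, at 4.84, 5.37, and 3.54, were the cultures of clone 16. Of these, 4.84 and 3.54 lay within the range of GS115 and 5.37 just above it.

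GQ67_04595, which ranked second, gave the same picture. It lay between 3.66 and 5.05 in GS115 rhGH (median 4.81) and between 2.85 and 4.33 in GS115 rhG-CSF (median 4.04). Other rhGH libraries lay between 7.99 and 11.38, both extremes in Y-11430. Within Y-11430 rhGH, cultures 22A, 8A, and 8C reached 11.38, 11.34, and 11.33, and the remaining cultures stayed at or below 9.44. Clone 8 thus spanned a wider range among its cultures, 9.36 to 11.34, than the rhGH means of Y-11430, Y-48124, and X-33, which lay between 9.83 and 10.41. In Y-11430 rhG-CSF clone 16 the levels were 4.36, 4.20, and 4.24, within the range of GS115.

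The gene ranked 3 was the most abundant of the first 4. Its group means were 8.73 ± 0.14 (GS115 rhGH) and 8.96 ± 0.53 (GS115 rhG-CSF), against 15.23 ± 0.16 in Y-48124 rhGH and 15.50 ± 0.28 in Y-48124 rhG-CSF. Y-11430 rhGH was in between at 13.64 ± 0.49, with libraries from 12.60 to 14.77. Cultures 22A, 8A, and 8C, the highest for GQ67_04595, were the lowest 3 for this gene, at 12.66, 12.60, and 12.81.

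PDR12 was at rank 4. In Saccharomyces cerevisiae, Pdr12p is an ABC transporter of the plasma membrane that exports weak organic acids. PDR12 ranged from 3.75 to 5.11 in GS115 rhGH libraries (median 4.45) and from 3.79 to 4.85 in GS115 rhG-CSF libraries (median 4.28). In rhGH libraries of the other strains the values were 8.43 to 9.21 (Y-11430), 8.44 to 9.25 (Y-48124), and 8.18 to 9.47 (X-33). In rhG-CSF libraries they were 8.09 to 8.98 (Y-48124), 8.59 to 8.91 (X-33), and 7.18 to 8.95 (Y-11430). GS115 did not overlap with any other group, including the 3 cultures of Y-11430 clone 16 at 7.64, 7.64, and 7.18.

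**Figure D3:**
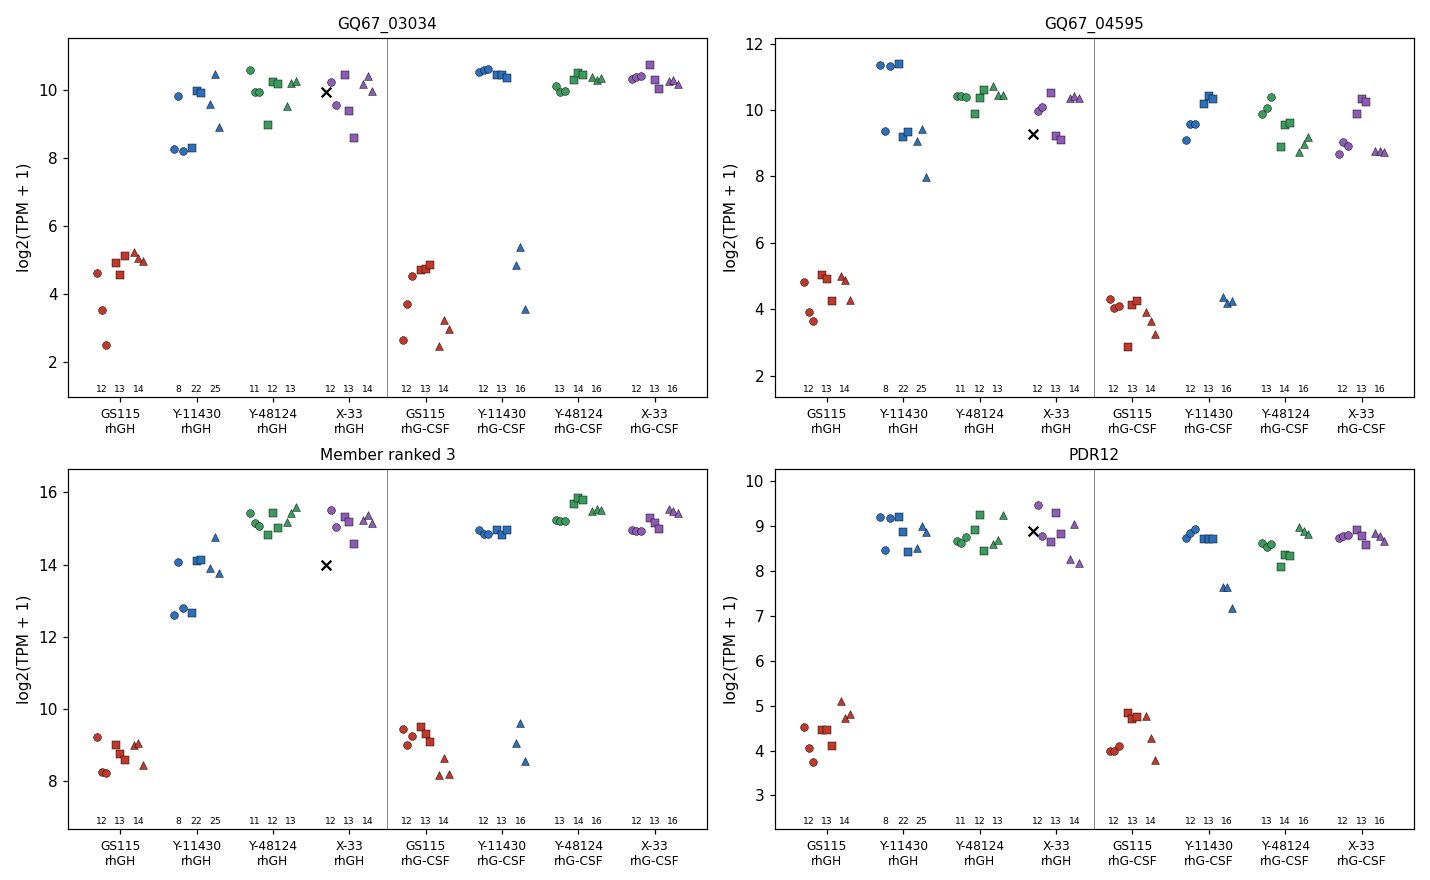
Level of the first 4 genes in every culture as log2(TPM + 1), grouped by strain and product, with the clone number above the axis with a cross for X-33 rhGH 12A. The axes do not start at 0. GS115 lies below all other cultures in the 4 panels, except that Y-11430 rhG-CSF clone 16 lies among or just above the GS115 cultures for the first 3 genes. For PDR12, clone 16 lies between 7.18 and 7.64.

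The study lists 20 genes with the strongest loadings on a principal component, an axis of variation, that set GS115 apart from other strains. They came from strains without transgenes grown with glycerol, and 8 have a symbol. Loadings of both signs are listed, negative for PDR12, FRE1, CTR1, and ZPS1 and positive for NIT1. Genes of opposite sign move in opposite directions along the component, so the 20 are not a list of low genes. PDR12 was the only one of the 20 among the 100. Of the other 19, the highest score stood at rank 159, and FRE1, a metal reductase in S. cerevisiae, had a score of only 0.10. Both CTR1, a copper transporter in S. cerevisiae, and ZPS1 had scores below 0, at -0.33 and -0.15. Each was lowest in GS115 with 1 product only, by 1.10 for ZPS1 (rhG-CSF) and by 0.04 for CTR1 (rhGH). NIT1, a nitrilase family member, stood last of all 5120 genes, with 9.72 in GS115 rhGH and means between 3.68 and 4.08 in the other rhGH strains.

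Whether low expression in GS115 carried over from one product to the other was tested with lists chosen on 1 product alone. The 100 genes with the widest gap in rhGH strains were all lower in GS115 with rhG-CSF (100 of 100), where 27.4% of the 5045 genes tested were lower. Their median log2 fold change was -3.03 (range -6.63 to -1.58), and that of all genes was 0.06. Without Y-11430 rhG-CSF clone 16 the count was again 100, with a median of -3.19. In the opposite direction, the 100 genes chosen in rhG-CSF strains were all lower in GS115 with rhGH (100 of 100), where 28.9% of all genes were lower, with a median of -3.24 (range -7.11 to -1.36). Clone sums were compared by the quasi-likelihood test of edgeR, and a gene was called at a Benjamini-Hochberg adjusted p under 0.05. The 2 lists shared 77 genes, and 84 and 89 of their genes were among the 100.

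For the 100 genes themselves, the clones were compared as a description. On clone means of log2(TPM + 1), every GS115 clone was below every other clone for 98 genes with rhGH (11.6% of all genes), the exceptions being ranks 65 and 92. With rhG-CSF this held for 54 genes (6.93% of all genes), and without Y-11430 clone 16 for all 100 (15.5%).

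The library labelled X-33 rhGH 12A took no part in the choice of genes, but the GS115 rhGH libraries set against it did. Its place above them is therefore a description and not an independent check. The 12A library was above every GS115 rhGH library for 100 of the 100 genes, as it was for 18.8% of all genes. The median gene of the 100 was 2.54 higher in it than in the GS115 rhGH mean, whereas the median of all genes was 0.43 lower. It differed by a median of -0.17 from the other X-33 libraries and of -0.12 from Y-11430.

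The 3 strains other than GS115 were compared with each other. The rule used the lowest of their means, so it worked against genes that were low in any of them. This limits how far the 100 genes could differ between these strains with either product. Between X-33 and Y-48124, over both products, 0 of the 100 genes were called by edgeR (0% of all genes), 0 by DESeq2, and 1 at p under 0.05 before adjustment, with fitted log2 fold changes between -0.60 and 0.20. The median was -0.16, and 88 of the fitted values were below 0, against 48.3% of all genes. Between Y-11430 and the other 2 strains with rhGH, 1 gene was called higher by edgeR (3.47% of all genes) and 0 lower (1.63% of all genes), and 8 were under 0.05 without adjustment. The median log2 fold change of the 100 was -0.25, with 71 of the fitted values below 0, against 48.2% of all genes. The called gene, ranked 17, was higher in Y-11430 with a log2 fold change of 1.81 (SE 0.40, adjusted p = 0.0081 by edgeR). It ranged from 5.72 to 9.98 in Y-11430 rhGH libraries (median 7.11), 6.18 to 7.08 in Y-48124, and 6.08 to 7.37 in X-33, so the groups overlapped. The call was lost, and 0 were called, without Y-11430 rhGH clone 8 or clone 22, and 11 were called (9 lower, 2 higher) without Y-11430 rhG-CSF clone 16, which shares the estimate of the spread. In that fit 8.11% of all genes were called, against 5.09% with every clone. With only the rhGH clones in the fit, 18 genes were lower in Y-11430 and 4 higher, where 13.4% of all genes were called.

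With rhG-CSF, 0 of the 100 genes were called between Y-11430 and the other 2 strains by edgeR (1.96% of all genes), and 0 by DESeq2. Before adjustment, 10 had a p under 0.05. The median log2 fold change of the 100 was -0.29, with 85 of the fitted values below 0, and that of all genes was 0.03, with 45.9% below 0. Without clone 16, 0 of the 100 genes were called (0.317% of all genes), and the median of the 100 turned to 0.14, against 0.01 for all genes. Without clone 12 or without clone 13 of Y-11430, 2 genes were called lower, where 8.23% and 6.82% of all genes were called. In Y-11430 rhG-CSF, the SD between clones had a median of 1.54 over the 100 genes, against 0.38 for the 3568 genes at least as abundant as the least abundant of the 100. Without clone 16 it was 0.29 against 0.16. In Y-11430 rhGH it was 0.31 against 0.18. Pooled over both products, the SD was 0.39 against 0.29 in GS115, 0.24 against 0.18 in Y-48124, and 0.32 against 0.23 in X-33.

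Within Y-11430 rhG-CSF, clone 16 had low levels of most of the 100 genes. The median level of the 100 was 6.49 to 6.61 in its 3 cultures, 8.71 to 8.98 in those of clone 12, and 9.25 to 9.27 in those of clone 13. The clone mean of the median gene was 2.65 below that of its sister clones, and that of all genes was 0.02 above. Every culture of clone 16 was below every culture of both sister clones for 90 of the 100 genes (23.4% of all genes) and above for 5 (23.0%). The comparison within Y-11430 was not used to choose the genes, and clone 16 lowered the mean that a gene needed to be chosen.

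In edgeR, with cultures as repeats of a clone, 88 of the 100 genes were lower in clone 16 than in its sister clones, where 24.7% of the 4937 genes tested were lower. Another 5 were higher (26.5% of all genes), and 7 were not called. The median log2 fold change was -2.62 (range -5.75 to 1.81) for the 100 and 0.05 for all genes. Of the 88, the fold change exceeded 1 on the log2 scale in 86, exceeded 2 in 70, and exceeded 4 in 16. GQ67_03034 fell by 5.75 (SE 0.51) and GQ67_04595 by 5.63 (SE 0.45), with adjusted p = 2.09e-14 and 4.58e-16. PDR12 fell by 1.25 (SE 0.21, adjusted p = 1.80e-06). The spread in this test is that between cultures, so the result is about 1 clone and not about Y-11430.

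The 5 genes that rose in clone 16 ranked 40, 42, 57, 74, and 92. The gene ranked 92 rose most, by 1.81 on the log2 scale (SE 0.63, adjusted p = 0.013 by edgeR), from 9.57 to 9.90 in clone 12 and 8.97 to 9.50 in clone 13 to 11.19 to 11.30 in clone 16. In GS115 rhG-CSF libraries it lay between 2.68 and 5.67. These genes moved away from GS115, in contrast to the 88 that fell.

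Clone 16 was close to GS115 for most of the 100 genes but not for others that set GS115 apart. On a scale from the sister clones (0) to the GS115 rhG-CSF mean (1), the median of the 100 genes was at 0.878, and 84 genes were closer to GS115. PDR12 was at 0.293. For comparison, the 100 genes that were highest in GS115 with both products were picked by the mirror image of the rule, after the levels of clone 16 were seen. Only 8 of these were closer to GS115 in clone 16, and the median difference of clone 16 was -2.74 to GS115 and 0.69 to the sister clones. Its NIT1 level was 4.85, against 4.00 and 4.32 in the sister clones and 9.67 in GS115 rhG-CSF. Clone 16 is part of the Y-11430 mean in both rules, so both rules work against genes in which it resembles GS115.

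**Figure D4:**
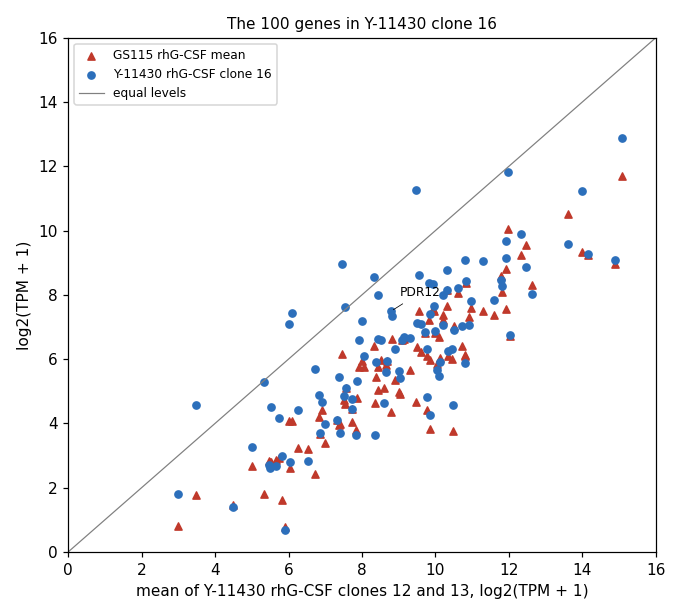
Each of the 100 genes in Y-11430 rhG-CSF clone 16 (circles) and as the GS115 rhG-CSF mean (triangles), against the mean of Y-11430 rhG-CSF clones 12 and 13, all as log2(TPM + 1). Points on the line have the same level as in the sister clones, and 88 genes were called lower and 5 higher in clone 16.

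The rhG-CSF transgene was at 16.09 on the log2(TPM + 1) scale in clone 16 and at 13.65 and 12.67 in clones 12 and 13. Over all rhG-CSF clones the next highest level was 13.76, in GS115 clone 13. The part of the transgene level in the low values of clone 16 was not tested.

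The same test was run for each of the 24 clones against its sister clones. Apart from the 3 clones of Y-11430 rhG-CSF, 19 genes were lower in X-33 rhGH clone 14 (2.82% of all genes) and 19 in Y-11430 rhGH clone 25 (2.23%). In X-33 rhG-CSF clone 13, 26 genes were higher (2.35%) and 3 lower (1.24%). In GS115 rhG-CSF clone 13, 21 genes were lower (19.5% of all genes) and 10 higher (20.8%), so the 100 were called no more often than other genes. In GS115 rhG-CSF clone 14, 10 genes were lower (21.9%) and 32 higher (21.3%).

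**Figure D5:**
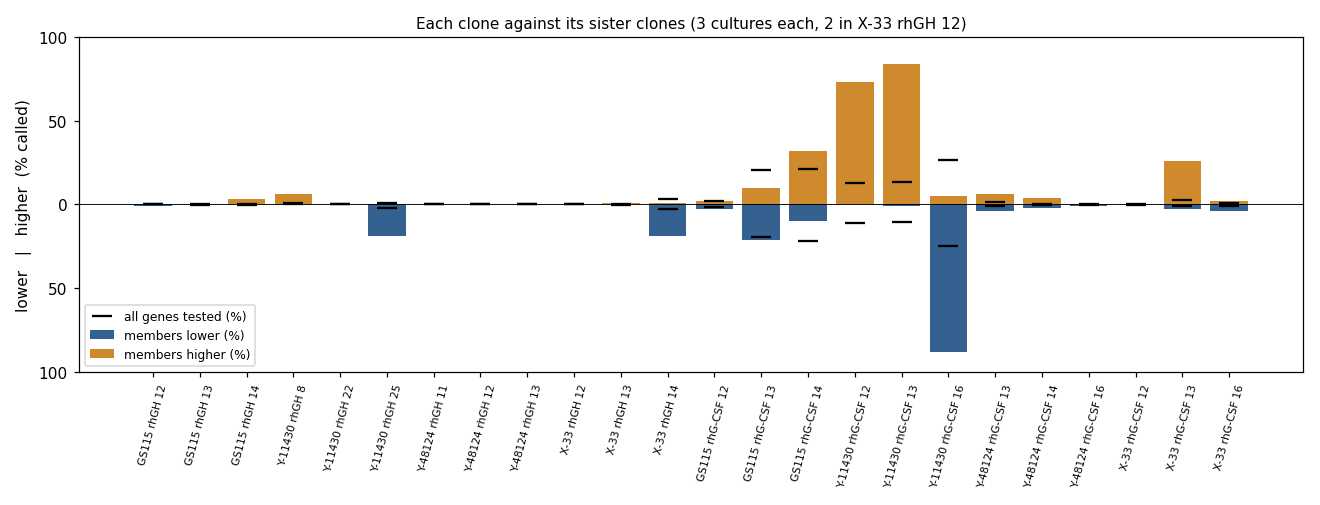
Percent of the 100 genes called higher (upward bars) or lower (downward bars) in each clone than in its sister clones by edgeR, with cultures as repeats, and the same percent over all genes tested (black lines). Y-11430 rhG-CSF clone 16 has 88% lower, and its sister clones have 73% (12.8% of all genes) and 84% (13.2%) higher because they are compared with it.

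The 2 products were compared next. In the 3 strains other than GS115, 22 of the 100 genes were lower with rhG-CSF than with rhGH, where 6.36% of all genes were lower, and 1 was higher (7.20% of all genes). The median log2 fold change of the 100 was -0.43 and that of all genes was 0.02. The 22 genes fell by 0.54 to 1.66 on the log2 scale. Of the 22, 14 were also lower in Y-11430 clone 16, as were 88 of the 100, and 3 were higher there, as were 5 of the 100. The count of genes called depended on single clones. It was 36 (31 lower, 5 higher) without Y-11430 rhG-CSF clone 16, where 12.9% of all genes were called in either direction and the median of the 100 was -0.28. Without clone 13 it was 40, where 18.0% of all genes were called, against 13.6% with every clone. Without X-33 rhG-CSF clone 12 or 16 it was 13 or 15, without X-33 rhGH clone 12 or 13 it was 15 or 14, and without Y-48124 rhG-CSF clone 14 or 16 it was 15 or 14, and in these 6 fits 8.52% to 11.1% of all genes were called.

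The gene ranked 40 fell the most with rhG-CSF, by 1.66 (SE 0.25, adjusted p = 0.0004 in edgeR). Its rhGH libraries lay between 7.20 and 9.72 in Y-11430 (median 9.16), 5.24 and 9.18 in Y-48124 (median 8.45), and 5.55 and 9.20 in X-33 (median 6.82). With rhG-CSF the ranges were 5.63 to 7.19, 5.88 to 6.81, and 6.26 to 6.78. The groups overlapped within Y-48124 and X-33, and the rhGH libraries of these strains covered the wider range. The gene ranked 99 was the one that rose, by 1.65 (SE 0.23, adjusted p = 0.0003 by edgeR). It lay between 9.86 and 10.98 in Y-48124 rhG-CSF against 7.79 to 9.12 with rhGH, and between 9.80 and 10.76 in X-33 rhG-CSF against 7.58 to 8.89, without overlap. In Y-11430 the groups overlapped, at 8.98 to 10.96 with rhG-CSF and 7.49 to 9.38 with rhGH, and the lowest rhG-CSF cultures, 8.98 to 9.14, were those of clone 16.

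In GS115, 0 of the 100 genes were called between the products by edgeR (0% of all genes), 0 by DESeq2, and 7 had an unadjusted p under 0.05. The median log2 fold change was -0.20, and that of all genes was 0.06. The difference between GS115 and the other 3 strains in this product effect was tested directly. It was called for 0 of the 100 genes by edgeR (0% of all genes), with 10 under 0.05 before adjustment. DESeq2 called 3 of the 100 (0.548% of all genes). By edgeR, the genes called in the other strains are therefore not shown to respond differently to the product in GS115. The lowest fitted difference was -2.24, at rank 99 (SE 0.46, adjusted p = 0.12 by edgeR). The highest was 1.96, at rank 40 (SE 0.51, adjusted p = 0.24 by edgeR). The rule took the smaller gap of the 2 products, which limits how far a gap could differ between them.

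The 100 genes were not spread evenly over the identifiers. Of 196 places directly before or after one of the 100 in identifier order, 20 (10.2%) held another of the 100, which make up 1.95% of all genes. These were 19 genes in 9 runs of consecutive identifiers, the longest of 3. The 175 different neighbors outside the 100 had a median score of -0.39, against -0.77 for all genes not among the 100, and 33.1% of them had a score above 0, against 17.7%. The tables do not state whether consecutive identifiers are neighbors on a chromosome.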

How the data were processed

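Reads of the 3′ DGE libraries were quantified by the authors with Salmon 0.9.1 on 1 transcript per gene with a 3′ extension. The deposited tables hold whole-number counts per gene and log2(TPM + 1) values. TPM divides by transcript length although 3′ reads do not grow with it, so levels of different genes are compared only approximately. Whether reads of 1 molecule were merged is not given in the sources used here. Groups came from the sample labels. All genes, lists, and comparisons were chosen with earlier results of these data known.

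Deposited counts were summed by clone, without X-33 rhGH 12A, and 24 clones in 8 groups were compared by edgeR 4.0.16 in R 4.3.3 (TMM, filterByExpr, quasi-likelihood test, Benjamini-Hochberg adjustment over 5045 genes). All 100 genes passed the filter. The comparison of sister clones was added after the data were seen and used 71 single cultures. DESeq2 1.42.0 and limma 3.58.1 on log2 values were alternatives, as were other scaling, no filter, cultures as replicates with and without a replicate block, and each clone left out. A level under 3 counts was taken as the floor. The text names genes with a symbol in the study's list and the 2 highest scores. Ranks 3, 16, 17, 24, 40, 82, 92, and 99 and others were singled out after their values were seen. Fits were tested on simulated counts. No gene or promoter sequence could be matched to the identifiers, so none is shown.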

Additional observations from a re-analysis of the deposited data

Results flagged for a closer look

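Levels of the first 4 genes, the median of the 100, and their share of TPM were examined in the 8 groups of libraries for a culture far from the rest of its group, 48 groups of values in all, of which chance alone would single out about 2.4. Only 1 did so. GQ67_04595 was at 9.87 in Y-48124 rhGH 12A, and the other cultures of that group lay between 10.35 and 10.71.

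Although left out of the comparisons, X-33 rhGH 12A was above every GS115 rhGH library for 100 of the 100 genes, as it was for 18.8% of all genes. Those GS115 libraries had chosen the genes, so this is a description. The 12A library sat at 0.842 on the scale from Y-48124 to Y-11430, against its label.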

How the results depend on the processing

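With single cultures as replicates, the genes called rose to 17 (Y-11430 and the 2 revertants with rhGH, 18.1% of all genes), 21 (with rhG-CSF, 21.3%), 1 (products in GS115, 0.405%), 56 (products in the other strains, 35.2%), and 10 (difference between them, 6.89%). With the culture letter as a replicate block, these were 16, 21, 1, 56, and 10, beside 17.9%, 21.3%, 0.405%, 35.0%, and 6.87% of all genes. Cultures of a clone are not independent transformants. Deviations of same-lettered cultures had a median correlation of 0.0025 across clones, so no pairing by letter was seen over all clones. A median over all pairs of clones cannot show a pairing within single groups. DESeq2 called 99 and 99 of the lists chosen on 1 product and 3 genes for the difference between product effects. limma called 0 and a fit of rhGH clones alone 22 for Y-11430 with rhGH. The cause of these changes was not tested.

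Leaving out each clone in turn gave 100 to 100 of the rhGH-chosen and 99 to 100 of the rhG-CSF-chosen genes. The ranges were 0 to 11 and 0 to 2 for Y-11430 with rhGH and rhG-CSF, 0 to 0 for X-33 against Y-48124, 0 to 1 for products in GS115 (1 without GS115 rhG-CSF clone 13), and 13 to 40 in the other strains. For the difference between product effects it was 0 to 3, with 3 without GS115 rhG-CSF clone 13 or X-33 rhGH clone 14 and 1 without Y-11430 rhG-CSF clone 16. Leaving out each Y-11430 rhG-CSF culture gave 88 to 89 genes lower in clone 16, and limma gave 89. Of the 100 genes, the rule kept 99 with X-33 rhGH 12A, 92 with a pseudocount of 5, 97 with CPM, 87 with medians over clones, 99 with a mean count of at least 10, and 85 to 100 without single clones. With 3 clones a group, differences within the spread between clones could not be detected.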
